A study of Mus musculus with 8 samples.

Results

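Lentiviral knockdown of the nuclear receptors Nr2f1 and Nr2f2 in primary mouse neurospheres was described by setting the array of neurospheres carrying an shRNA against both mRNAs against the array of neurospheres carrying a control shRNA directed at firefly luciferase, 1 array a side. Neurospheres are free-floating aggregates rich in neural stem and progenitor cells, here derived from EB3 mouse embryonic stem cells. Embryoid bodies made in the presence of the BMP antagonist Noggin were dissociated on day 6, exposed to lentivirus at a multiplicity of infection of about 25 and grown for 6 days with 20 ng/ml FGF2 (primary neurospheres, P0). The other arrays carried a control miRNA or miR-17 at P0, and the same 4 vectors in tertiary neurospheres (P2), so the study held 8 arrays and every culture, controls included, had received a lentivirus and FGF2. Whether the cultures were set up independently is not given in the labels, and 1 knockdown vector is named, so the spread between cultures of 1 group and between shRNAs could not be measured.

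Of 35426 gene names on the array, the 24496 with a probe well above background on the knockdown array, the control shRNA array or both were used, and 22281 of these were well above background on both. Levels are log2 intensities relative to each array's 75th percentile, so a level of 0 is that percentile, and a difference is the knockdown level minus the control shRNA level. The pair of arrays alone gives no test, a fit over all 8 arrays stands at the end, and genes were counted at 2-fold, a difference of at least 1 in size. Probes printed 10 times on each array gave a median standard deviation between copies of 0.07 in the difference, with a 95th percentile of 0.23, which describes spots and not cultures. The number of arrays limits the precision of each value below.

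Nr2f1 (COUP-TFI) and Nr2f2 (COUP-TFII) are orphan members of the nuclear receptor family that bind direct repeats of the sequence AGGTCA and act mostly as repressors. In the developing forebrain they pattern the cortex and the ganglionic eminences, the ventral domains that give rise to GABAergic interneurons, and in neural progenitors grown from embryonic stem cells they are known for the passage from a neurogenic to a gliogenic phase. Gsx and Dlx homeobox genes are the regulators that build the GABAergic program of the ganglionic eminences.

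Genes of that program were among the well-measured genes that lay farthest below the other arrays. Gsx1, Dlx1, Dlx2 and Dlx5 were each more than 2-fold lower on the knockdown array than on the control shRNA array, and also lower than on both miRNA-vector arrays of primary neurospheres. Genes for GABA synthesis, vesicular loading and breakdown were lower by 0.84 to 1.07 log2 units. The upstream sequences of Gsx1, Dlx1 and Dlx2, the genes this pattern turns on, are shown as given by RefSeq on GRCm38.p6, 250 bases before the annotated start, read in the direction of the gene. Capitals mark AGGTCA or its complement TGACCT, the core element of COUP-TF binding, searched on both strands. Gsx1 lies at chr5:147188446-147188695 on the plus strand, Dlx1 at chr2:71529195-71529444 on the plus strand and Dlx2 at chr2:71546755-71547004 on the minus strand.
Gsx1: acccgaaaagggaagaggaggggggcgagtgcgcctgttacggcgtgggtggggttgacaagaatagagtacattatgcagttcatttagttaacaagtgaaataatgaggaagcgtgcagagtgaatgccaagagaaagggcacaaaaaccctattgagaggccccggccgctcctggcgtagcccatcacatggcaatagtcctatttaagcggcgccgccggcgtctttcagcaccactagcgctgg
Dlx1: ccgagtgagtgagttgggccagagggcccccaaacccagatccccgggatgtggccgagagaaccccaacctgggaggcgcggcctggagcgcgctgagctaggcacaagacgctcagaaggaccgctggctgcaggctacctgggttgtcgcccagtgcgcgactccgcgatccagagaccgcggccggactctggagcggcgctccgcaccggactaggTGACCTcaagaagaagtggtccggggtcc
Dlx2: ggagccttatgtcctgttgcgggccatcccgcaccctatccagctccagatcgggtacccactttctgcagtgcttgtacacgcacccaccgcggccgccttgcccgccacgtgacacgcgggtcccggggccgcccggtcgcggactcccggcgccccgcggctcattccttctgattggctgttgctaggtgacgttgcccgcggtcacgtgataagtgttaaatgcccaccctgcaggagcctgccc
The element was found in 1 of these 3 windows, in Dlx1, where it starts 29 bases before the annotated start. Among all 32851 upstream windows of the same length in the table, 14.02% held it. The match is a description of letters and says nothing of binding.

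The targets of the shRNA were read first. In mm9 coordinates, the 2 probes of Nr2f1 lie at chr13:78328723-78328782 and chr13:78328290-78328349, and the probe of Nr2f2 at chr7:77496873-77496932. The level of Nr2f1 was 5.37 on the knockdown array, against 6.16 on the control shRNA array, 5.07 on the control miRNA array and 5.52 on the miR-17 array. The knockdown array was therefore below its own control, by 42.2% on one probe and 42.7% on the other, and inside the range of the remaining arrays. The level of Nr2f2 was 2.82 with the knockdown, against 3.32 with control shRNA, 2.21 with control miRNA and 2.30 with miR-17. Nr2f2 was 29.6% lower than in control shRNA and higher than on either miRNA-vector array. Nr2f6, the third receptor of the family and not a stated target, stood at 4.04 with the knockdown and 3.98 with control shRNA, a difference of 0.07. Both targets thus remained above the 75th percentile of the knockdown array, and control miRNA was lower than control shRNA by 1.08 for Nr2f1 and by 1.11 for Nr2f2. In whole cultures, fewer cells of a type and less RNA per cell cannot be told apart, here and in all results that follow.

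Most receptors and cofactors of this group were somewhat lower than with control shRNA. Of 17 measured members of the list of COUP-TF receptors and cofactors, 12 were below 0 and 0 reached 2-fold either way. Over all 24496 genes, 50.2% were below 0. The list's median was -0.22 against -0.0016 over all genes. The list holds the targets Nr2f1 and Nr2f2 and other nuclear receptors, so these values are not those of cofactors alone. Its median was -0.40 for control miRNA minus control shRNA. For the knockdown minus the mean of the other 3 P0 arrays it was 0.02. Zfpm2, the FOG2 cofactor that binds COUP-TFII, had a level of -1.16 with the knockdown, against -0.31 with control shRNA, -1.02 with control miRNA and -0.53 with miR-17. Zfpm2 was the lowest member of the list, at -0.85, and its knockdown value was below the other 3 arrays by 0.14. A second, dimmer probe of Zfpm2 differed by -0.43. On that probe the knockdown, at -1.81, lay above control miRNA, at -2.01. Zfpm1, the relative of Zfpm2, differed by -0.40, and the corepressor Ncor1 by 0.08. Genes that other work reports to respond to COUP-TFs showed no common direction, with 8 of 18 above 0, 10 below and a median of -0.02. Foxc1, a forkhead factor, was lowest at -0.66, and Notch1, the Notch receptor, was highest at 0.52.

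At 2-fold, 1241 genes differed (5.07% of those measured), of which 942 were higher (3.85%) and 299 were lower (1.22%). Most genes at 2-fold lay near background. Higher genes made up 66.3% to 82.4% of those at 2-fold in each range of level up to 1, and 4 of 9 above it. Below a mean level of -5, 71.4% of 630 genes passed the limit with a median difference of 1.14. In that range a gene was kept only where 1 array was bright enough, so the other array lay lower. Its large share at 2-fold is thus set in part by the filter, and the sign follows which array was bright. Above a level of 1 the limit was passed by 0.105% of 8537 genes with a median of -0.07. Among genes well above background on both arrays, 280 were higher (1.26%) and 116 lower (0.521%), and among the 13552 of these with a mean level of at least -1, 28 were higher (0.207%) and 12 lower (0.0885%). The excess also depended on the background correction. With normexp correction 205 genes passed, 95 higher (46.3%) and 110 lower, against 75.9% higher in the values above, and with quantile normalization 63.1% of 959 were higher. The miRNA and shRNA controls differed at 2-fold in 4117 of the same genes (16.8%), control miRNA being higher in 2672 (10.9%) and lower in 1445 (5.9%), so the knockdown array lay closer to its own control than the control miRNA array did.

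**Figure D1:**
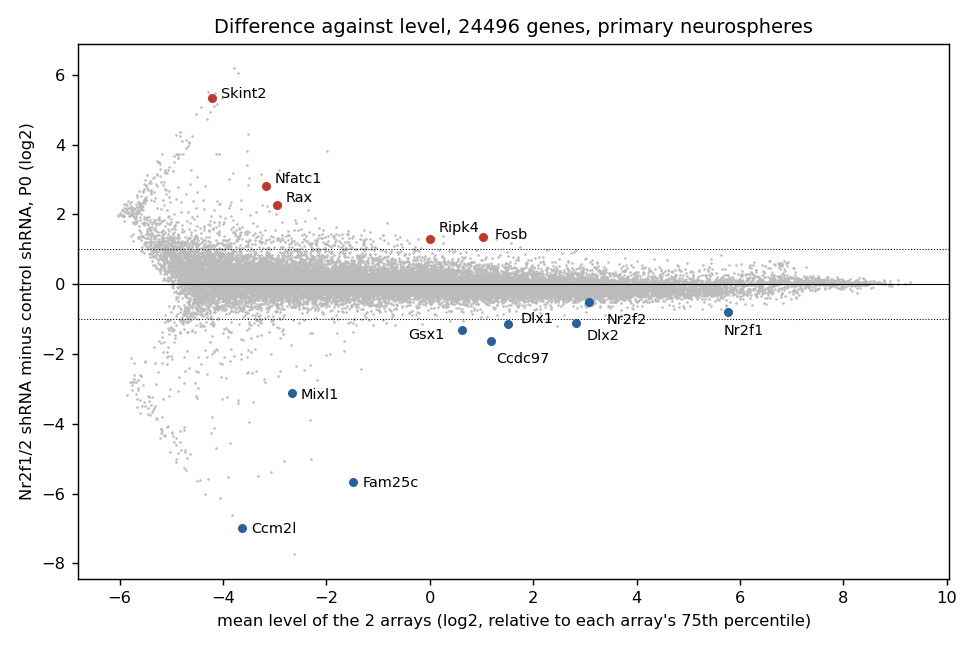
Each point is 1 of 24496 genes, with the mean level of the knockdown and control shRNA arrays on the horizontal axis (log2, relative to the 75th percentile of each array) and the difference, knockdown minus control, on the vertical axis (log2); dotted lines mark 2-fold. Gsx1, Dlx1 and Dlx2, at -1.30, -1.15 and -1.12, lie below the band of genes of their level, while most points beyond 2-fold are dim, and Fam25c and Mixl1 were far brighter on the control shRNA array.

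Most homeobox genes of the ventral forebrain were lower with the knockdown. Gsx1, a ganglionic eminence progenitor factor, had a level of -0.02 with the knockdown, against 1.28 with control shRNA, 1.58 with control miRNA and 1.41 with miR-17. The knockdown array was the only one of the 4 near 0, and its difference from control shRNA was -1.30, or 2.46-fold lower. Dlx1 was at 0.93 with the knockdown, against 2.08, 1.92 and 2.01 on the control shRNA, control miRNA and miR-17 arrays. Dlx2, its neighbour on chromosome 2 and partner in interneuron specification, was at 2.26 with the knockdown, against 3.38, 3.23 and 3.18 on those arrays. For both genes the 3 other arrays lay within 0.20 of each other, and the knockdown array lay 0.99 and 0.92 below the lowest of them. Dlx5, a later member of the same cascade, was at -0.14 with the knockdown, against 0.92 with control shRNA, 0.66 with control miRNA and 0.87 with miR-17, a difference of -1.06. Each of these 4 genes had 1 probe above background.

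The noncoding RNAs of the Dlx loci followed the same pattern, although they were dimmer or less separated. Dlx1as, transcribed opposite to Dlx1, was at -4.42 with the knockdown, against -2.86 with control shRNA, -3.02 with control miRNA and -3.07 with miR-17. Dlx6os1, the noncoding RNA of the Dlx5 and Dlx6 locus, was at 0.12 with the knockdown, against 1.18 with control shRNA, and 0.24 and 0.47 on the control miRNA and miR-17 arrays. It was 2.08-fold lower than control shRNA and only 0.12 below the control miRNA array. Gsx2 differed by -0.80 on one probe and -0.72 on the other, Dlx6 by -0.53, and Sp9, a zinc-finger factor of the same lineage, by -1.10. Sp8, the relative of Sp9, went the other way at 0.35. In all, 9 of these 10 genes, picked after their values were seen, were lower with the knockdown and all 9 lay below all 3 other arrays, as did 21% of all genes. Lhx6, a marker of medial ganglionic eminence interneurons, differed by 0.32.

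Genes that make and handle GABA were lower with the knockdown as well. Slc32a1, the vesicular GABA transporter, was at 3.26 with the knockdown, against 4.14 with control shRNA, 4.08 with control miRNA and 4.41 with miR-17, a difference of -0.88 on the brighter probe and -0.38 on the other. Abat, the transaminase that breaks GABA down, was at 1.40 with the knockdown, against 2.24, 2.73 and 2.32 on the control shRNA, control miRNA and miR-17 arrays. For both, the knockdown array stood more than 0.80 below the lowest of the others. Gad1, a glutamate decarboxylase that makes GABA, was at 1.28 with the knockdown, against 2.35 with control shRNA, 1.60 with control miRNA and 1.51 with miR-17. Here most of the difference of -1.07 was an excess on the control shRNA array, and the knockdown lay only 0.23 below the next array. Gad2, the second decarboxylase, differed by -0.85. The median of these 4 genes, again picked after their values were seen, was -0.87, against -0.29 for control miRNA minus control shRNA.

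**Figure D2:**
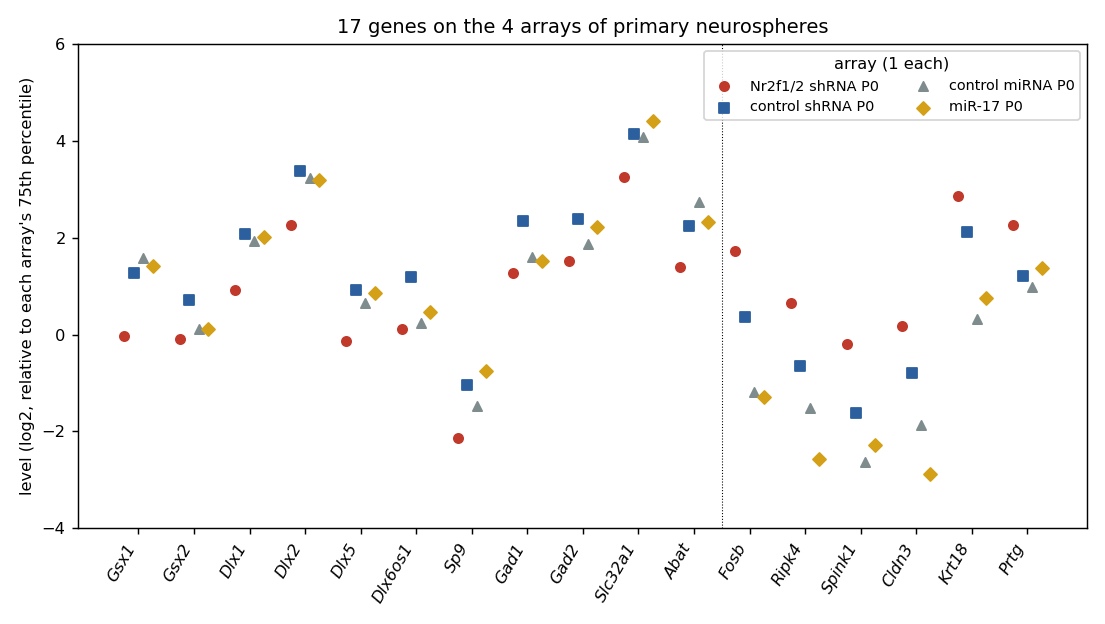
Levels (log2, relative to the 75th percentile of each array) of 17 genes on the 4 arrays of primary neurospheres, 1 point per array; genes left of the dotted line belong to the ventral forebrain and GABA program and genes right of it were higher with the knockdown. Red knockdown points lie below the 3 other arrays for each of the 11 genes on the left, with wide gaps for Gsx1, Dlx1, Dlx2 and Dlx5 and narrow ones for Dlx6os1 and Gad1, and above them for each of the 6 genes on the right.

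Across the wider list of interneuron selectors, which covers spinal and midbrain classes as well, 22 of 26 measured genes were below 0, with 1 at 2-fold lower and 0 higher, and the median was -0.22. The list's median for control miRNA minus control shRNA was -0.46. Tal1, Gata2 and Gata3, which together specify GABAergic neurons of the spinal cord and midbrain, differed by -0.87, -0.88 and -0.78. Tal1 was at 0.87 with the knockdown, against 1.74 with control shRNA, 0.53 with control miRNA and 2.41 with miR-17, so its knockdown value was inside the range of the other arrays. Tfap2b, an AP-2 factor also used by inhibitory neurons, was at -0.73 with the knockdown, against 0.42, -0.23 and 0.21 on the control shRNA, control miRNA and miR-17 arrays, 0.50 below the lowest. In the dorsoventral patterning list 18 of 27 were below 0, with a median of -0.15, and in the forebrain and midbrain list 11 of 24 were, with a median of 0.02. That list therefore held the Dlx genes as its lowest members and no common direction. Otx2 and Six3, regulators of the anterior brain, differed by -0.01 and 0.02.

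Neurogenic genes were lower by small amounts in nearly every case. Of 25 neuron genes, 24 were below 0, with a median of -0.35, while 0 passed 2-fold, and the median was -0.58 for control miRNA minus control shRNA. Tubb3, neuronal tubulin, was at 4.27 with the knockdown, against 4.63 with control shRNA, 4.62 with control miRNA and 4.88 with miR-17. Islr2, a receptor of growing axons, was lowest of the list at -0.61, and its knockdown value lay inside the range of the other arrays. Snap25, a synaptic SNARE protein, was the sole member above 0, at 0.40. The 4 neuron markers Tubb3, Dcx, Elavl3 and Stmn2 were all lower with the knockdown, and their summed linear level was 65.6 with the knockdown, against 82.3 with control shRNA, 66.0 with control miRNA and 88.9 with miR-17. Their part in the lower GABA and Dlx values was not tested.

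Among proneural and neurogenesis genes, 19 of 24 were below 0 and the median was -0.30. Scrt1, a zinc-finger repressor of new neurons, differed by -0.88, and Neurog2, a proneural factor of glutamatergic lineages, by -0.82. For Scrt1 the level was 2.94 with the knockdown, against 3.83 with control shRNA, 2.98 with control miRNA and 3.80 with miR-17. Knockdown and control miRNA were thus alike for this gene, and Neurog2 was lower on the control miRNA array than on the knockdown array. Ptf1a, a selector of inhibitory neurons in the dorsal cord and cerebellum, was the 1 member at 2-fold higher, at -3.18 with the knockdown and not well above background with control shRNA, at least 3.43-fold higher.

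Most progenitor genes differed little taken singly. Of 19 neural stem and progenitor genes, 14 were below 0, with a median of -0.10 and 0 at 2-fold. Sox2, the neural stem cell factor, was at 3.06 with the knockdown, against 3.14 with control shRNA, 3.23 with control miRNA and 2.74 with miR-17. The summed linear level of 8 progenitor markers was nevertheless the lowest of the 4 arrays, at 124 with the knockdown, against 153 with control shRNA, 201 with control miRNA and 162 with miR-17. This sum is weighted to its brightest members, Hes5 and Fabp7. Of the 8 markers, 3 were higher and 5 lower with the knockdown than with control shRNA. Fabp7, a fatty acid binding protein of radial glia, was at 5.41 with the knockdown, against 6.03 with control shRNA, 6.32 with control miRNA and 5.41 with miR-17. The part of this in the lower neuronal and GABA values was not tested. All 8 neural progenitor markers and all 4 neuron markers were well above background on the 4 arrays of primary neurospheres, as the label of the cultures has it. All 4 pluripotency markers were above background too, and Nanog was at 0.48 with the knockdown, against 0.28 with control shRNA, -1.77 with control miRNA and -2.37 with miR-17. Both shRNA arrays thus stood above both miRNA-vector arrays for Nanog.

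**Figure D3:**
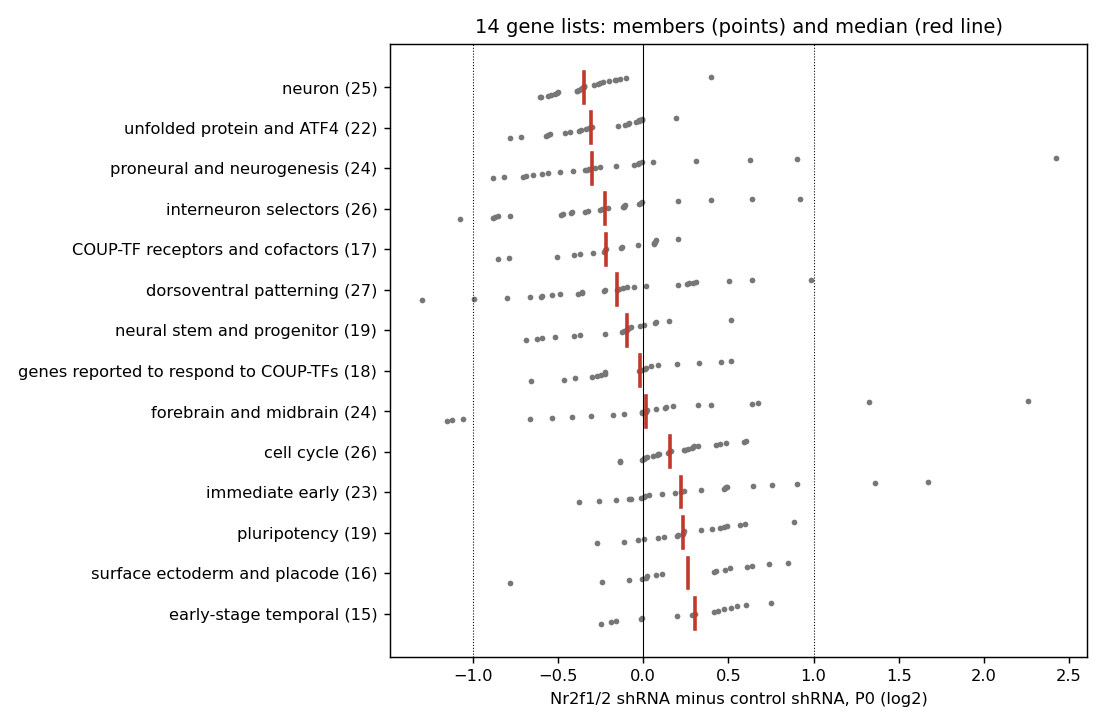
Differences (knockdown minus control shRNA at P0, log2) of the measured members of 14 gene lists, with the number measured in brackets; points are genes, red lines are medians and dotted lines mark 2-fold. Neuron and unfolded protein genes lie almost wholly left of 0, at medians of -0.35 and -0.31, and cell cycle and early-stage temporal genes mostly right of it, at 0.15 and 0.30.

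Genes of early neural progenitors were somewhat higher. Of 15 early-stage temporal genes 10 were above 0, with a median of 0.30. Hmga2, a chromatin protein of young progenitors, was at 2.13 with the knockdown, against 1.58 with control shRNA, 1.58 with control miRNA and 1.49 with miR-17. Trim71, a translational repressor regulated by let-7, was at 1.04 with the knockdown, against 0.29, 0.12 and 0.69 on the control shRNA, control miRNA and miR-17 arrays. For both the knockdown array was the highest of the 4, by 0.54 and 0.35, while a second, dimmer probe of Trim71 differed by 0.06. Lin28a, which blocks let-7 maturation, differed by 0.44 and Dlk1, a Notch-like ligand, was lowest in the list at -0.25. Of 26 cell cycle genes 23 were above 0, with a median of 0.15, highest for the licensing genes Mcm5 at 0.60 and Cdc6 at 0.59. Mcm5 was at 2.17 with the knockdown, against 1.56 with control shRNA, 3.14 with control miRNA and 2.36 with miR-17, inside the range of the other arrays, and the control miRNA median for this list was 0.67. Of 23 genes for cyclin-dependent kinase inhibitors and p53 targets, 18 were below 0, with a median of -0.17. The median was -0.30 for control miRNA minus control shRNA and 0.05 for the knockdown minus the mean of the other 3 P0 arrays. Cdkn1b, the inhibitor p27, differed by -0.50. It was at 3.23 with the knockdown, against 3.73 with control shRNA, 3.37 with control miRNA and 2.86 with miR-17, inside the range of the other arrays.

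Genes of the unfolded protein and ATF4 stress response were lower than in control shRNA by small amounts. Of 22 such genes 21 were below 0, with a median of -0.31, and 0 reached 2-fold. The median was -0.25 for control miRNA minus control shRNA and 0.02 for the knockdown minus the mean of the other 3 P0 arrays. Chac1, a glutathione-degrading ATF4 target, was at 2.63 with the knockdown, against 3.42 with control shRNA, 1.99 with control miRNA and 1.61 with miR-17. Asns, asparagine synthetase, was at 5.28 with the knockdown, against 6.00, 4.36 and 4.36 on the control shRNA, control miRNA and miR-17 arrays. For both genes the control shRNA array was the highest of the 4, and the knockdown lay between it and the miRNA-vector arrays. Hspa5, the endoplasmic reticulum chaperone BiP, differed by -0.01, and the chaperones Calr and Hsp90b1 by -0.02 and -0.09.

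Among well-measured genes that were higher with the knockdown, epithelial genes recurred. Ripk4, a kinase of epidermal differentiation, was at 0.65 with the knockdown, against -0.65 with control shRNA, -1.52 with control miRNA and -2.56 with miR-17. Spink1, a trypsin inhibitor, was at -0.20 with the knockdown, against -1.61, -2.63 and -2.29 on the control shRNA, control miRNA and miR-17 arrays. Cldn3, a tight junction claudin, was at 0.18 with the knockdown, against -0.79 with control shRNA, -1.86 with control miRNA and -2.88 with miR-17. In each case the knockdown array was the highest, control shRNA came next and both miRNA-vector arrays were lower still. Krt18, a keratin of simple epithelia, differed by 0.74, Dsp, the desmosome protein desmoplakin, by 1.16, Lsr, a tricellular junction receptor, by 0.93, and Lama5, a basement membrane laminin, by 0.75. Of 19 epithelial genes picked after their values were seen, 17 were higher with the knockdown, Cldn4 at -0.53 and Esrp1 at -0.17 being the exceptions, and 15 were above all 3 other arrays, as were 20.5% of all genes. The list of surface ectoderm and placode genes, which shares 6 genes with these 19, had 12 of 16 above 0 and a median of 0.26, which was 0.05 over the 8 members with a mean level of at least -1. Its markers Krt8, Krt18 and Epcam were all higher, with a summed linear level of 8.97 with the knockdown, against 5.63 with control shRNA, 2.06 with control miRNA and 2.42 with miR-17, and their part in the other epithelial genes was not tested.

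Several immediate early genes were higher. Fosb was at 1.72 with the knockdown, against 0.36 with control shRNA, -1.19 with control miRNA and -1.29 with miR-17. Fos, a gene of the same AP-1 family, was at 3.002 with the knockdown, against 2.10, 0.33 and 0.16 on the control shRNA, control miRNA and miR-17 arrays. Egr1, a zinc-finger gene of the same rapid response, differed by 0.76. Egr2 differed by 1.67 but was dim, at -2.50 with the knockdown and -4.17 with control shRNA. Both shRNA arrays exceeded both miRNA-vector arrays for Fosb and Fos, and the knockdown exceeded its control by 2.57-fold for Fosb and 1.87-fold for Fos. Over the 23 immediate early genes measured, 17 were above 0, 2 passed 2-fold higher, 0 lower, and the median was 0.22. Jun at 0.0018 and Atf3 at -0.38 did not share the direction. At P2 the list's median for knockdown minus control shRNA was -0.35, against 0.08 over all genes, so the direction was not kept.

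To set the knockdown apart from spread among the other cultures, genes were taken whose level was at least -1 on average and whose 3 other P0 arrays lay within 1.5-fold of each other, which 8790 genes met. At 2-fold, and with no limit on level, the knockdown array lay above all 3 others in 228 genes (0.931%) and below them in 75 (0.306%). In the closely agreeing set it lay at least 1.5-fold below all 3 in 20 of them (0.228%) and at least 1.5-fold above in 23 (0.262%). Of the 20, 18 had gene names, chosen by this rule after the values were seen, and Gsx1, Dlx1, Dlx2, Dlx5, Slc32a1 and Abat were among them. The others included Vgf, a precursor of neuropeptides, at 0.52 with the knockdown, against 1.47 with control shRNA, 2.03 with control miRNA and 1.53 with miR-17. Rbfox1, a neuronal splicing factor, was at 0.03 with the knockdown, against 0.78, 0.76 and 1.01 on the control shRNA, control miRNA and miR-17 arrays. Both are neuronal genes. Sez6, a neuronal membrane protein, lay 0.64 below the lowest other array, St8sia5, a sialyltransferase of brain gangliosides, 0.68 below, and Magel2, an imprinted gene of the hypothalamus, 0.59 below. Foxj1, the regulator of motile cilia, was at -1.02 with the knockdown, against -0.30 with control shRNA, -0.11 with control miRNA and 0.19 with miR-17. Ccdc97 was lowest by size, at 0.38 with the knockdown, against 2.00, 2.17 and 2.19 on the control shRNA, control miRNA and miR-17 arrays, but its 1 probe lies in row 9, a part of the array with unusual spots described below.

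The 23 genes above included Prtg, protogenin, a receptor of the early neural tube, at 2.26 with the knockdown, against 1.21 with control shRNA, 0.98 with control miRNA and 1.37 with miR-17. Fzd4, a Wnt receptor, was at 0.02 with the knockdown, against -0.84, -0.66 and -0.97 on the control shRNA, control miRNA and miR-17 arrays. Frem1 and Frem2, basement membrane proteins, lay 0.68 and 0.71 above the highest other array, and Polq, a DNA polymerase of end joining, 0.74 above. Of the 23, 15 had gene names. At P2, 20 of these 23 were higher, and of the 20 genes lying below 12 were lower and 8 higher, beside 59.8% of the 8790 genes higher at P2. Wdr86, Clic6 and Ripk4, whose other arrays were less alike, lay 1.17, 1.04 and 1.30 above the highest of them.

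The largest differences of all had another character. Fam25c was at -4.31 with the knockdown, against 1.35 with control shRNA, and between -5.67 and -3.20 on the 6 remaining arrays of both passages. Mixl1, a mesendoderm homeobox gene, was at -4.23 with the knockdown, against -1.10 with control shRNA, -7.03 with control miRNA and -7.05 with miR-17. Crx, a photoreceptor homeobox gene, was at -4.56 with the knockdown, against -1.86, -7.03 and -6.74 on the control shRNA, control miRNA and miR-17 arrays. In each, the control shRNA array was the highest of the 4 P0 arrays and the knockdown array, also well above background, came next. Ccm2l, Trpm3 and Csf3, which were not well above background with the knockdown, were at least 31.5-, 26.8- and 24.2-fold lower, and the other 2 probes of Ccm2l differed by 0.10 and 1.53 and were dim on both arrays. The second probe of Sh3pxd2a, a gene at -3.89, differed by -0.20.

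Such lone bright spots were counted on all arrays. Among probes printed once, 37 on the knockdown array and 53 on the control shRNA array were at least 8-fold above all 7 other arrays, against 6 on control miRNA and 9 on miR-17 at P0. At P2 the numbers were 17 on the knockdown array and 32 on the control shRNA array, against 2 on each miRNA-vector array. Of the 53, 21 (39.6%) lay in the first 48 rows of the array, which hold 12.5% of such probes, as did 15 of the 32 on control shRNA at P2 (46.9%). Of the 299 genes at 2-fold lower, 38 were of this kind, 14 of them in those rows, as were 27 of the 942 higher genes, 4 of them there. On the knockdown array Skint2, an immunoglobulin-like gene, and Olfr930, an odorant receptor, were at least 10.8- and 9.06-fold higher by this kind of spot, each dim with control shRNA. What made these spots bright was not tested.

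**Figure D4:**
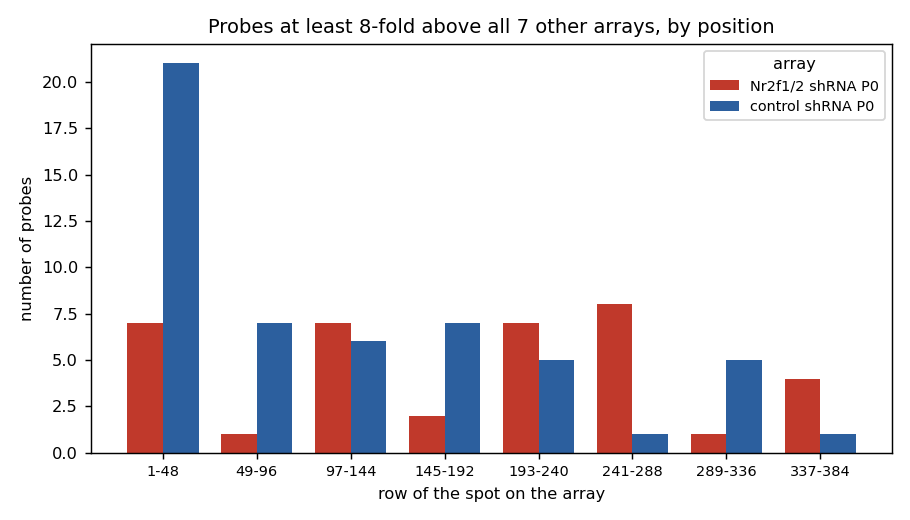
Number of probes at least 8-fold above all 7 other arrays, by the row of the spot in blocks of 48 rows, on the knockdown array (red) and the control shRNA array (blue). The first block holds 21 such probes on the control array and 7 on the knockdown array, and the remaining blocks hold at most 8.

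The 942 higher genes were mostly dim loci. Of them 662 were dim on 1 array and 565 had placeholder names. Of all 24496 genes measured, 22281 were well above background on both arrays and 9426 had placeholder names. Vomeronasal receptor genes, which serve pheromone sensing, passed 2-fold higher in 13 of 41 cases (31.7%), beside 3.85% of all genes. For control miRNA minus control shRNA, which shares the control shRNA array, 15 of 41 passed, beside 10.9% of all genes. The control shRNA array had the fewest spots above background among the P0 arrays, 57.9%, against 63.2% on the knockdown array, 65.0% on control miRNA and 67.9% on miR-17, and the part of this in the higher counts was not tested. Abcc6, a transporter, was at -2.05 with the knockdown, against -4.16 with control shRNA, -0.48 with control miRNA and 0.20 with miR-17.

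Among the named genes highest with the knockdown and above background on both arrays, some stood apart from the rest. Ihh, a hedgehog ligand, was at -1.50 with the knockdown, against -3.32 with control shRNA, -4.18 with control miRNA and -2.90 with miR-17. Anxa1, an annexin, was at -0.49 with the knockdown, against -2.04, -3.26 and -3.11 on the control shRNA, control miRNA and miR-17 arrays, and its probes gave 1.56 and 1.07. Rax, the eye field homeobox gene, was at -1.83 with the knockdown, against -4.09 with control shRNA, -2.79 with control miRNA and -4.30 with miR-17. All 3 were dim genes, in which spread between arrays was larger. Nfatc1, a calcium-regulated factor and the highest of them at 2.81, had a second probe at -0.03. Of the 113 higher genes with 2 or more probes above background, all probes had the same sign in 86 and passed 2-fold in 33. Of the 34 lower ones, 12 had probes of the same sign and 1 passed in all.

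The knockdown pair of tertiary neurospheres, which shares no array with the primary pair, was set beside these values. At P2 2096 of the same genes were 2-fold higher (8.56%) and 2012 lower (8.21%). Of the 942 genes higher at P0, 160 were 2-fold higher at P2 and 115 were 2-fold lower, and of the 299 lower ones 44 were lower and 43 higher. Shared and opposite genes were thus of similar number among the lower genes. The epithelial genes Ripk4 and Cldn3 were higher at both passages, by 1.77 and 3.56 at P2. Of the 19 epithelial genes, 13 were higher and 6 lower at P2, with a median of 0.33, and Krt8, Anxa1 and Krt18 were among the lower ones at -3.19, -2.53 and -0.58. Higher at both passages was also Galnt12, a mucin-type glycosyltransferase, at 1.29 at P0 and 2.42 at P2. Dkk1, a secreted Wnt inhibitor, was at 1.29 and 3.12. Sall4, a zinc-finger gene of embryonic stem cells, was at 1.31 and 1.63, but its second probe gave -0.03 at P0 and the choice of that probe under normexp correction turned the sign, to -0.05. Sspn, the membrane protein sarcospan, was lower at both, at -1.39 and -3.25, as was Hs3st4, a heparan sulfate sulfotransferase, at -1.03 and -2.17.

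The ventral forebrain genes did not keep their direction at P2. The 10 Gsx, Dlx and Sp genes had a median of -1.08 at P0 and 1.51 at P2, where all 10 were higher. Dlx2 was at 2.97 with the knockdown at P2, against 0.67 with control shRNA at P2. Dlx1 was at 2.17 with the knockdown at P2, against 0.71 with its control. For Dlx1, Dlx2 and Dlx5 the control shRNA level was lower at P2 than at P0 and the knockdown level was higher. The 4 GABA genes were lower at P2 too, with a median of -0.46. Vgf and Foxj1 were lower at P2 by larger amounts, -2.88 and -2.62.

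**Figure D5:**
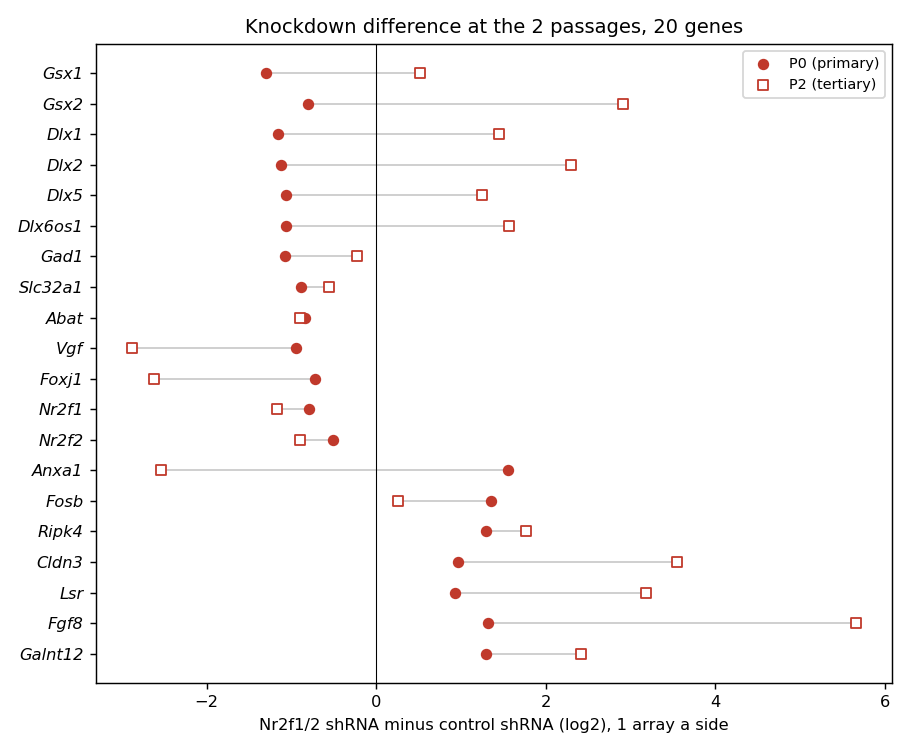
Difference between knockdown and control shRNA (log2) of 20 genes in primary neurospheres (filled circles) and tertiary neurospheres (open squares), 1 array a side at each passage. Dlx1, Dlx2, Dlx5 and Dlx6os1 lie left of 0 at P0 and right of it at P2, while Slc32a1, Abat and Vgf stay on the left and Ripk4, Cldn3 and Lsr on the right.

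Tests across all 8 arrays, which treat the arrays of other conditions as a measure of spread, called no gene. In limma over 27086 genes, 0 passed for the knockdown over both passages (smallest adjusted p = 0.999, 517 at an unadjusted p under 0.05), 0 for the knockdown at P0 (smallest adjusted p = 0.9999, 162 unadjusted) and 0 for the difference of the knockdown between passages (smallest adjusted p = 0.9998, 1082 unadjusted). Gsx1, Dlx1 and Dlx2 did not pass in these tests, which had 3 or 1 residual degrees of freedom. No group had a replicate. With 1 residual degree of freedom, the spread was how far the shRNA and miRNA controls differed in their change with passage. That is not a spread between cultures of 1 group. The fit over both passages averages P0 and P2, where these 3 genes differed in opposite directions. These tests therefore cannot decide whether the 3 genes were lower at P0.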

How the data were processed

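Single-colour (Cy3) arrays of total RNA were read with Agilent Feature Extraction version 10.7.3.1, per the submitters' processing notes. The deposited scanner files hold an intensity per spot, background-subtracted and detrended, per the file headers. The authors' deposited table holds signal values equal to that intensity divided by 1 constant per array, and was used as an alternative. All 8 arrays lay on 1 slide, so slide position and group cannot be told apart. Control spots and outlier spots were left out, copies were averaged, and log2 intensity minus each array's log2 75th percentile was used. The probe with the highest mean over the pair stood for a gene, and a gene counted as above background where any of its probes was. A dim array gave only a bound, against its lowest signal above background. Probe coordinates are mm9, per the file headers. limma 3.58.1 in R 4.3.3 was fitted over all 8 arrays (Benjamini-Hochberg, two-sided) and tested on simulated data.

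The members and the 38 gene lists were chosen with earlier results of these data known. Named were the targets, the 15 highest and 15 lowest differences, the 8 highest bounds each way, the 10 farthest outside the other P0 arrays each way, the 8 shared with P2 each way and up to 4 members per list, placeholder names left out and not all printed. Other names were chosen after their values were seen. Alternatives were another background correction, normalization, filter, probe rule, fold limit and scaling percentile, the deposited table and each array left out. Some genes are not reported here.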

Additional observations from a re-analysis of the deposited data

Results flagged for a closer look

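Among genes named here with a mean level of at least -1, 7 differed by 2-fold or more in opposite directions at P0 and P2. Dlx1 differed by -1.15 at P0 and 1.45 at P2, Dlx2 by -1.12 and 2.30, Dlx5 by -1.06 and 1.24, and Dlx6os1 by -1.06 and 1.57. Pdlim3, an actin-associated muscle LIM protein, was lower at P0 by -1.19 and higher at P2 by 3.57. Anpep, the aminopeptidase CD13, was higher at P0 by 1.08 and lower at P2, at -1.21, and Slc26a1, a sulfate transporter, was at 1.17 and -1.26. With 1 array a side each sign rests on 1 pair. The limma fit took 1 change with passage, shared by the shRNA and miRNA controls. Its estimate is therefore not the difference between the 2 values printed for each gene. That estimate was 3.99 for Dlx1 and -0.28 for Slc26a1 in log2 units, and it did not pass for any of the 7. The printed pairs of values themselves were not tested. The signal of Anpep and Slc26a1 at P0 was also higher on the control miRNA array than on control shRNA.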

How the results depend on the processing

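No paired analysis was possible because each group has 1 array and the labels carry no replicate numbers that join groups. The count of genes at 2-fold, 1241 (942 higher, 299 lower), moved to 205 (95 higher, 110 lower) with normexp, 376 (273 and 103) when the same probe had to be well above background on both arrays, 2603 (1854 and 749) with no filter, 3088 (2326 and 762) at 1.5-fold and 514 (336 and 178) at 3-fold. With quantile normalization 605 were higher. Limited to a mean level of at least -1, a choice made after seeing the data, 40 remained (28 and 12). Against the mean of the other 3 P0 arrays 802 genes were 2-fold higher and 1160 lower, beside 228 and 75 outside their range. limma called 0 genes in each of its 27 alternatives, with 41 to 3216 at an unadjusted p under 0.05; each array was left out in turn for the knockdown over both passages only, and with 1 to 3 residual degrees of freedom these zeros say little about stability. Gsx1 stayed between -1.32 and -1.23, Dlx1 between -1.17 and -1.08 and Dlx2 between -1.14 and -1.05 over 10 alternatives, and the neuron list between -0.37 and -0.25. Named genes kept 1 sign in 277 of 294. Those at 2-fold that reversed were Sall4 (-0.048 with normexp), Ccm2l (0.10 with 2 of 8 arrays above background), Slc38a11 (0.20 with the mean of probes) and Inca1 (0.30 without the first 48 rows, added after seeing the data); each gene has another probe that differed from the main one. The endothelial, blood and microglia list turned to -0.12 at a mean level of at least -1, with 2 members left. List medians turned sign in 33 of 379 alternative values, and 21 of 38 lists kept 1 sign throughout. Signal near background limits most counts.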
